A study of Mus musculus with 39 samples.

Results

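The 33 complement system genes described here were taken from a named list of components, regulators and receptors, and each was found by its symbol among the 55416 genes of a table of liver RNA-seq counts. All 33 passed the filter on low counts and were among the 15296 genes tested. The livers came from 39 male mice, either CD163 knockouts or their wildtype littermates, bred from heterozygous C57BL/6NTac (CD163tm1(KOMP)Vlcg) parents. CD163 is a scavenger receptor of macrophages that takes up haemoglobin bound to haptoglobin. From 6 weeks of age and for 8 weeks the mice had either Western diet with fructose-supplemented water or an Altromin maintenance chow with normal water. On chow there were 5 wildtype and 4 knockout mice, on Western diet 15 mice per genotype, and every liver gave 1 library. Cages and litters are not given.

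Complement is a cascade of plasma proteins that tags, opsonises and lyses targets, and hepatocytes make most of its components. It is started by C1q bound to antibody (classical pathway), by sugar-binding lectins (lectin pathway) or by spontaneous turnover of C3 (alternative pathway), and all routes converge on C3 and then on the terminal proteins that form the membrane attack complex. Macrophages, in liver mostly Kupffer cells, make C1q and properdin and carry the receptors for the C3a and C5a fragments, whereas fat cells are the best known source of factor D. Several hepatocyte components are acute phase genes that are induced by interleukin-6 and interleukin-1 through STAT and C/EBP factors.

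The promoters of 4 members are shown because their transcripts differed in how they followed the acute phase genes from liver to liver, as described further on. Each line gives 250 bases before to 50 bases after a RefSeq gene start in build GRCm38.p6, read 5′ to 3′ on the strand of the gene. Capitals mark the letters of a C/EBP motif (TTGCNNAA) or a STAT motif (TTCNNNGAA) found on either strand. C3 lies at chr17:57228087-57228386 on the minus strand, C9 at chr15:6445096-6445395 on the plus strand, C8a at chr4:104876349-104876648 on the minus strand and C8g at chr2:25501670-25501969 on the minus strand.
C3: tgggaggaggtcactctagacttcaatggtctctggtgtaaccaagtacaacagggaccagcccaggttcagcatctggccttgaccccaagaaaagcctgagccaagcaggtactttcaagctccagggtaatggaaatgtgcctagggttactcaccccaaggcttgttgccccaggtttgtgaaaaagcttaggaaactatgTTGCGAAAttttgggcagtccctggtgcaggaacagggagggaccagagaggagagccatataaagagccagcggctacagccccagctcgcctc
C9: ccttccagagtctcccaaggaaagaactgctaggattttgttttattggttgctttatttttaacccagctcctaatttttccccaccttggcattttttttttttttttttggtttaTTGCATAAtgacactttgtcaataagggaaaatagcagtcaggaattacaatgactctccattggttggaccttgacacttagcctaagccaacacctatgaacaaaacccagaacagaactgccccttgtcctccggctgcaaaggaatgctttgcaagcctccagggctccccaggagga
C8a: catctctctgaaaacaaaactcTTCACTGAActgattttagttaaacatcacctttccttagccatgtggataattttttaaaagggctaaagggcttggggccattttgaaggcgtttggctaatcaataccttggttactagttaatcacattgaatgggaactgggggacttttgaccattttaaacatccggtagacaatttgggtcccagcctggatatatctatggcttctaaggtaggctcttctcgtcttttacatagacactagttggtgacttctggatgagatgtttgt
C8g: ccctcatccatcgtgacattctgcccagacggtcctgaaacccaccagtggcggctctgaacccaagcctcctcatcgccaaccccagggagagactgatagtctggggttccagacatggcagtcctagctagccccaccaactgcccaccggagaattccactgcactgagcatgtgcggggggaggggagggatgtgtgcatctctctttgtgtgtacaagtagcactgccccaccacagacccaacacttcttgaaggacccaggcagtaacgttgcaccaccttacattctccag
The C3 promoter held TTGCGAAA from position -45 and that of C9 held TTGCATAA from position -132, counted from the gene start at 0. The C8a promoter held TTCACTGAA from position -228, and the C8g promoter held neither motif. A RefSeq promoter was found for 25 of the 33 members, and C1qa, C4b, Serping1, Clu, Cfb, C2, Masp1 and Cfi had none. The C/EBP letters occurred in 5 of these 25 (C1ra, C1rl, C1s1, C3 and C9) and in 10.8% of all 32851 promoters of 300 bases in the table. The STAT letters occurred in 5 of 25 (C1ra, C8a, Colec11, Masp2 and Vtn) and in 8.3% of all promoters. An NF-kB motif, searched in the same way, occurred in 1 of 25, C3ar1, and in 1.63% of all. A member was counted if any of its promoters held the letters, whereas the shares of all are over single promoters. C1s1 and C8g had 2 promoters each, and the letters of C1s1 were in 1 of its 2. The C/EBP and STAT matches of C1ra do not overlap. A match describes these letters and is not a binding site.

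The genotype labels were checked with Cd163, the targeted gene. It was at 4.95 to 13.1 CPM (counts scaled to the library total) in the wildtype chow libraries and 2.59 to 15.8 CPM in wildtype Western diet, against at most 0.746 and 0.661 CPM in the knockouts of each diet. All 9 measured hepatocyte markers were at 1 CPM or more on average. By diet, 4 libraries went against their labels. By the mean log2 CPM of 22 cholesterol synthesis genes, wildtype chow A and knockout chow D were both at 5.40, against 6.70 to 7.22 in the other chow libraries. Wildtype Western diet A (7.16) and knockout Western diet M (7.17) lay above the 4.80 to 6.36 of the other Western diet libraries. The 4 keep their labels below, and diet results are also given without them. Total counts were 8578865 to 30438808 per library. Fewer cells of a type and less RNA per cell cannot be told apart in bulk liver.

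The 33 transcripts covered a wide range of levels per length, and hepatocyte products led the order. Vtn, vitronectin, which keeps terminal complexes off membranes, was highest at a mean of 1501 CPM per kb of exon and lay above the next gene in 39 of 39 livers. C3, the hub of the cascade, followed at 713 and Clu, clusterin, another fluid-phase inhibitor of the terminal complex, at 562 CPM per kb. C3 exceeded Clu in 28 of 39 livers, so the order of these 2 was not the same in every liver. C8g (347), C4b (310), Serping1 (297), Mbl2 (207), C9 (204), Cfi (196) and C8a (194 CPM per kb) came next. Mbl2 exceeded C9 in 24 of 39 livers and C9 exceeded Cfi in 19, so these neighbours did not differ beyond their spread. The lowest were Cd55 at 1.78, C5ar1 at 0.712 and C3ar1 at 0.663 CPM per kb, all of them membrane proteins.

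**Figure D1:**
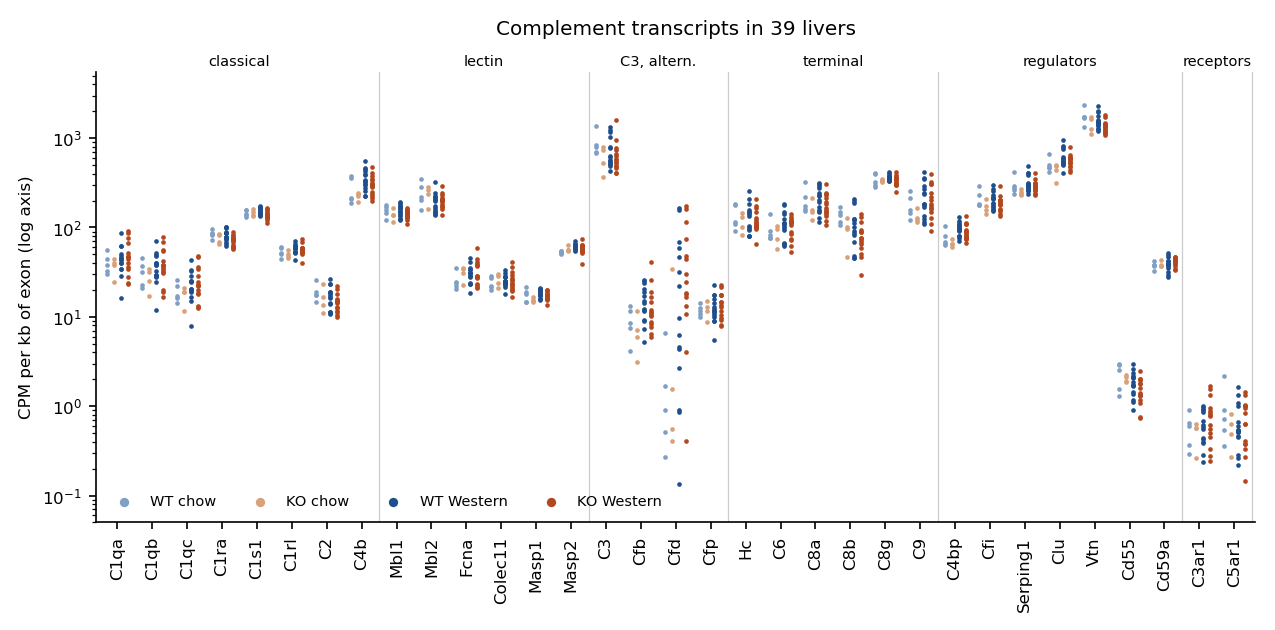
CPM per kb of exon (log axis) of each of the 33 members by role, with 1 point per liver and colours for the 4 groups. Vtn, C3 and Clu sit highest, the receptors C3ar1 and C5ar1 lowest, and Cfd spreads over the longest range.

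Members differed as much in how far they varied between livers. Over all 39 livers the coefficient of variation of CPM was lowest for C1s1 (9.80%), Masp2 (10.1%) and C8g (10.7%), a protease of the C1 complex, the main protease of the lectin pathway and a chain of C8. It was highest for Cfd (144%), C5ar1 (61.0%), Cfb (58.1%) and C3ar1 (51.3%). C5ar1 and C3ar1 rested on few reads, from 6 and from 14 counts in the lowest library. Cfd, factor D, which cuts factor B to build the alternative C3 convertase, spanned 1275-fold from the lowest liver (2 counts) to the highest.

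On Western diet, knockout livers were set against wildtype livers, and none of the 33 members passed the edgeR quasi-likelihood test. Of all genes tested 0.00654% were called lower, which is Cd163 alone, and 0% higher. At an unadjusted p under 0.05 there were 4 members (12.1%), all lower in the knockout, against 5.08% of all genes. DESeq2 and limma voom also called no member. The log2 fold change was negative for 22 of 33 members, with a median of -0.10, whereas it was negative for 46.5% of all genes, with a median over all genes of 0.01. Without the 4 libraries it was negative for 22 members again, with a median of -0.11. It was negative for 6 of 6 terminal pathway genes, 6 of 7 regulators, 5 of 8 classical, 3 of 6 lectin, 2 of 4 C3 and alternative pathway genes and 0 of 2 receptors.

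The 3 smallest p values in that comparison belonged to C1ra, Vtn and C1s1. C1ra, the protease that activates C1s, was at 187 to 305 CPM in wildtype Western diet (median 234) and at 172 to 268 CPM in knockout Western diet livers (median 218). The knockout livers were lower than the wildtype mean in 13 of 15, and the groups overlapped (log2 fold change -0.19, SE 0.07, edgeR adjusted p = 0.943). C1s1, the protease that cuts C4 and C2, averaged 474.8 ± 42.1 CPM (SD, n = 15) over wildtype livers and 434.3 ± 44.7 CPM (n = 15) over knockout livers. It was under the wildtype mean in 12 of 15 (log2 fold change -0.13, SE 0.05, edgeR adjusted p = 0.943). Vtn was at 2434 to 4688 CPM (median 3051) in wildtype and 2207 to 3697 CPM (median 2676) in knockout livers, again overlapping, and lower in 13 of 15 (log2 fold change -0.23, SE 0.09, edgeR adjusted p = 0.943). The acute phase list described below averaged 8.10 as mean log2 CPM in wildtype and 7.76 in knockout Western diet livers. Wildtype F, G, L, M and N stood apart in it at 8.83 to 10.2. These 5 were the 5 highest wildtype livers for C1s1, and 4 of the 5 highest for C1ra and for Vtn. Their part in the negative values was not tested. C8b, a chain of C8 that binds the C5b-7 complex, had the largest negative value of any member, -0.46 (SE 0.22, edgeR adjusted p = 0.943).

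C1ra, C1s1 and C1rl lie near Cd163, so loss of CD163 and a local effect of the altered allele cannot be told apart for them. In the GRCm38 annotation, used for order alone, C1rl, C1ra and C1s1 are the third to the fifth protein-coding genes after Cd163, behind Pex5 and Clstn3. The member C3ar1 is on the same chromosome, 20 protein-coding genes before Cd163, and a local effect was not tested for it either. C1rl, a C1r-like protease, had a log2 fold change of -0.02 (SE 0.07) on Western diet. Pex5, a peroxisomal import receptor, had -0.00 and Clstn3, a calsyntenin, 0.14 in the same comparison. On chow the values were -0.17 (SE 0.13) for C1ra, 0.01 (SE 0.10) for C1s1 and -0.09 (SE 0.12) for C1rl. The sign for C1ra was negative on both diets and that for C1s1 on Western diet, but none of these values passed the test. The difference between the diets for C1s1, as an interaction, was -0.13 (SE 0.11) and did not pass either.

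The central components had smaller differences relative to their error on Western diet. C3 was at 2190 to 6924 CPM (median 3200) in wildtype and 2076 to 8131 CPM (median 2956) in knockout livers (log2 fold change -0.19, SE 0.19). Hc, which encodes C5, had medians of 834 and 703 CPM (log2 fold change -0.12, SE 0.16). C1qa, C1qb and C1qc, the chains of C1q, had 0.13, 0.10 and 0.11 with SE of 0.19 to 0.20. Without knockout liver F these were 0.03, -0.01 and 0.02. C3 ran from -0.35 to -0.11 and Hc from -0.20 to -0.03 as single livers were left out. The receptors C3ar1 and C5ar1 had 0.35 (SE 0.25) and 0.09 (SE 0.30).

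On chow, knockout against wildtype, no member was called by edgeR, and again only Cd163 passed (0.00654% of genes lower, 0% higher). At an unadjusted p under 0.05 there were 0 members, against 2.74% of all genes. DESeq2 called 0 members, where it called 0.0131% of genes lower. Limma voom called 0 members and 0 genes. It missed Cd163 itself (log2 fold change -3.81, limma voom adjusted p = 0.451), so its count cannot tell whether members differ. The sign was negative for 26 of 33 members, with a median of -0.17, against 49.1% of all genes. Without the 4 libraries it was negative for 27, with a median of -0.20. The smallest p values were those of Masp1 (log2 fold change -0.19, SE 0.11), Vtn (-0.29, SE 0.17) and Cfi (-0.32, SE 0.19), each with an edgeR adjusted p of 1.00. Masp1 is a protease of the lectin pathway and factor I, from Cfi, cuts C3b and C4b. Masp1 was at 185, 178, 143, 144 and 212 CPM in the wildtype livers A to E and at 151, 146, 145 and 163 CPM in the knockout livers A to D. Cfi averaged 472.0 ± 107 CPM (SD, n = 5) over wildtype livers and 379.1 ± 62.6 CPM (n = 4) over knockout livers. For both genes all 4 knockout livers lay under the wildtype mean, and the groups overlapped. Without wildtype liver E the values were -0.10 for Masp1, -0.16 for Vtn and -0.18 for Cfi.

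Wildtype chow liver E was the highest of its group for 20 of the 33 members and A for 7, and they were the 2 highest for 11. Liver A was also the lowest for 8 members, among them C3, Vtn, C1ra, C1rl and Mbl2. The mean log2 CPM of 24 acute phase genes, a list with no complement gene, was 9.07 in A and 8.99 in E and 6.90 to 7.34 in the other wildtype chow livers. In the 4 knockout chow livers it averaged 7.07 (SD 0.14). C4b, the shared substrate of both C1s and MASP-2, reached 2046 CPM in A and 2120 CPM in E, whereas B, C and D had 1226, 1198 and 1062 CPM. Hc had 1109 and 1137 CPM in A and E and 679, 722 and 568 CPM in the others. The share of these livers in the negative signs on chow was not tested. Hc, C3 and the C1q chains had log2 fold changes of -0.22, -0.54, -0.13, -0.23 and -0.12 on chow, with SE of 0.30 to 0.38. Without wildtype liver E they were -0.09, -0.33, 0.02, -0.07 and 0.01.

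**Figure D2:**
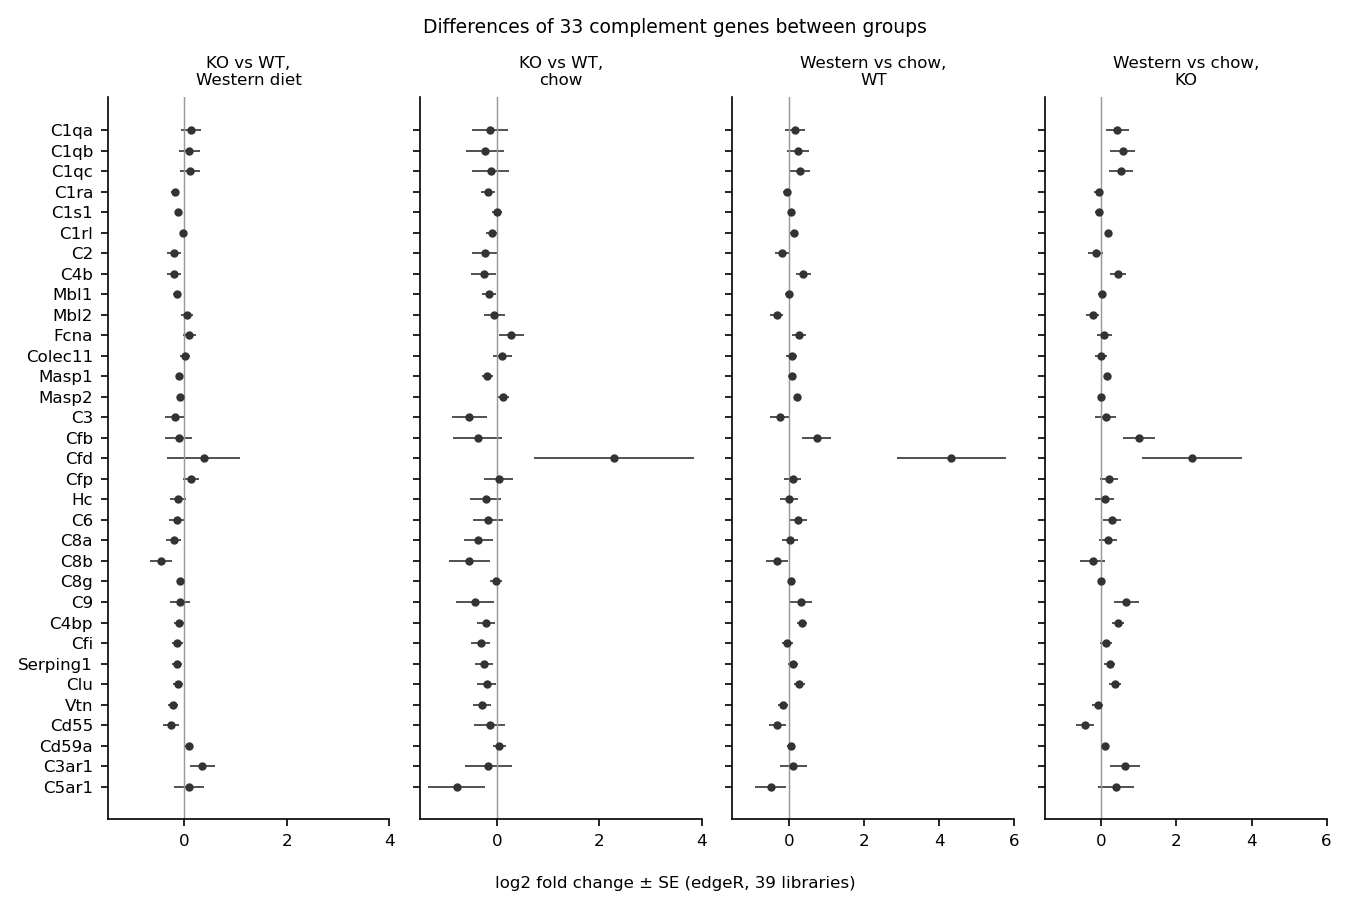
Log2 fold change ± SE of the 33 members in the edgeR fit, with 1 panel per comparison. Most genotype values lie to the left of 0 and most diet values to the right, none passes the test, and Cfd has the widest errors.

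Western diet against chow was compared next, first in wildtype mice. No member passed the edgeR test, where 0.771% of all genes were called higher and 0.615% lower. At an unadjusted p under 0.05 there were 4 members (12.1%), all higher on Western diet, against 17.2% of all genes. DESeq2 called 1 member, Cfd, where it called 2.24% of genes higher, and limma voom 1 member, C4bp, where it called 3.25% higher. The sign was positive for 24 of 33 members, with a median log2 fold change of 0.08, against 49.5% of all genes. In knockout mice no member passed, where edgeR called 0% of genes higher and 0.00654% lower, limma voom called 1 member, C4bp (2.65% of genes higher), and DESeq2 none. There 5 members (15.2%) had an unadjusted p under 0.05, all higher, against 19.2% of all genes. The sign was positive for 25 of 33, with a median of 0.17, against 49.9% of all genes.

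Without the 4 libraries, Cfd and C4bp rose in wildtype mice, and Cfd, Cfb and C4bp rose in knockouts. That is 2 of 33 members (6.06%) where 4.26% of 15461 genes were called higher in wildtype, and 3 of 33 (9.09%) where 9.69% were in knockouts, so these shares lie near the background. Factor D cuts factor B, from Cfb, and C4b-binding protein, from C4bp, takes apart the classical convertase. The other 30 or 31 members were not called in that fit either. The 4 were picked from these same livers by cholesterol synthesis genes, which separate the diets. The p values without them are therefore not independent of that choice.

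C4bp was at 700.2, 442.5, 433.2, 457.6 and 547.5 CPM in wildtype chow livers A to E and at 443.2, 407.9, 434.6 and 501.7 CPM in knockout chow livers A to D. The highest chow liver of each genotype was A in wildtype and D in knockout, which are 2 of the 4 libraries. On Western diet it was at 470 to 871 CPM (median 645) in wildtype and 448 to 914 CPM (median 584) in knockout livers. The lowest Western diet livers were wildtype A and knockout M, the remaining ones of the 4. With all libraries wildtype mice had a log2 fold change of 0.34 (SE 0.14, edgeR adjusted p = 0.180) and knockouts 0.45 (SE 0.15, edgeR adjusted p = 0.134). Without the 4 libraries it was 0.51 (edgeR adjusted p = 0.0139) and 0.56 (edgeR adjusted p = 0.0102). Every Western diet knockout liver lay above the knockout chow mean.

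Cfd had the largest diet difference and the largest spread. In chow livers it was at 6.01, 0.246, 0.826, 1.55 and 0.479 CPM in wildtype A to E and at 0.377, 1.43, 0.509 and 31.2 CPM in knockout A to D. On Western diet it was at 0.125 to 153 CPM (median 8.94) in wildtype and 0.377 to 160 CPM (median 22.6) in knockout livers. Apart from the 4 libraries, chow livers stayed at 1.55 CPM or less. Wildtype G, L and M (0.125, 0.832 and 0.791 CPM) and knockout H (0.377 CPM) on Western diet stayed in that range too, so the diets overlapped. Its log2 fold change between diets reached 4.33 (SE 1.44, edgeR adjusted p = 0.113) in wildtype and 2.42 (SE 1.32, edgeR adjusted p = 0.303) in knockouts. Without the 4 libraries it was 5.66 (edgeR adjusted p = 0.0297) and 6.00 (edgeR adjusted p = 0.0297), and without knockout chow D alone the knockout value was 5.90 (edgeR adjusted p = 0.0535). Its genotype value on chow, 2.28 (SE 1.56) with all libraries, was 0.03 without them and -1.20 without knockout chow D alone.

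Defining fat cell markers were at or near 0 beside Cfd. Lep had 0 counts in 38 of 39 libraries, and Adipoq, Plin1 and Retn reached at most 0.170, 0.397 and 0.452 CPM. Of the 8 listed fat cell markers, Car3, Fabp4 and Cidea averaged 1 CPM or more. Car3, at 1908 to 7991 CPM in every liver, made up nearly all of their sum, which was 1942 to 8140 CPM. Without Car3 the other 7 summed to 12.8 to 19.8 CPM (wildtype) and 11.1 to 23.4 CPM (knockout) on chow. On Western diet they summed to 8.53 to 57.3 CPM (wildtype) and 11.7 to 148.5 CPM (knockout). Cidec and the listed markers Cidea, Fabp4 and Car3 were each set against Cfd across Western diet livers. Of these 4 genes, 3 passed by rho across wildtype and 2 across knockout livers. For Cidec, a lipid droplet protein, Spearman's rho with Cfd was 0.96 in wildtype (Pearson's r 0.94, both adjusted permutation p = 8e-05) and 0.75 in knockout livers (r 0.81, adjusted permutation p = 0.0039 for rho and 0.000187 for r), with n = 15 each. For Cidea it was 0.81 (r 0.84, adjusted permutation p = 0.00107 and 0.00026) and 0.88 (r 0.83, adjusted permutation p = 0.0002 and 0.000187). Without the 2 livers farthest from the median, r was 0.91 and 0.74 for Cidec and 0.81 and 0.78 for Cidea. Fabp4, a fatty acid carrier, passed in wildtype (rho 0.70, adjusted permutation p = 0.00688) and not in knockouts (rho 0.44, adjusted permutation p = 0.103). Car3, a carbonic anhydrase, did not pass by rho in either (0.46 and 0.51, adjusted permutation p = 0.101 and 0.0750), although its r in wildtype did (0.70, adjusted permutation p = 0.00526, and 0.42 without the 2 farthest livers). These 8 relations were chosen after their values were seen.

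Cfb was at 33.03, 24.2, 20.97, 11.8 and 37.6 CPM in wildtype chow and 20.2, 8.82, 16.6 and 32.8 CPM in knockout chow livers. On Western diet it was at 14.7 to 72.4 CPM (median 40.6) in wildtype and 16.9 to 117 CPM (median 31.0) in knockout livers. Knockout liver E alone reached 117 CPM, and the diets overlapped in both genotypes. Its log2 fold change came to 0.74 (SE 0.38, edgeR adjusted p = 0.315) in wildtype and 1.00 (SE 0.43, edgeR adjusted p = 0.204) in knockouts. Without the 4 libraries the value in knockouts was 1.45 (edgeR adjusted p = 0.0342) and in wildtype 0.92 (edgeR adjusted p = 0.155).

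**Figure D3:**
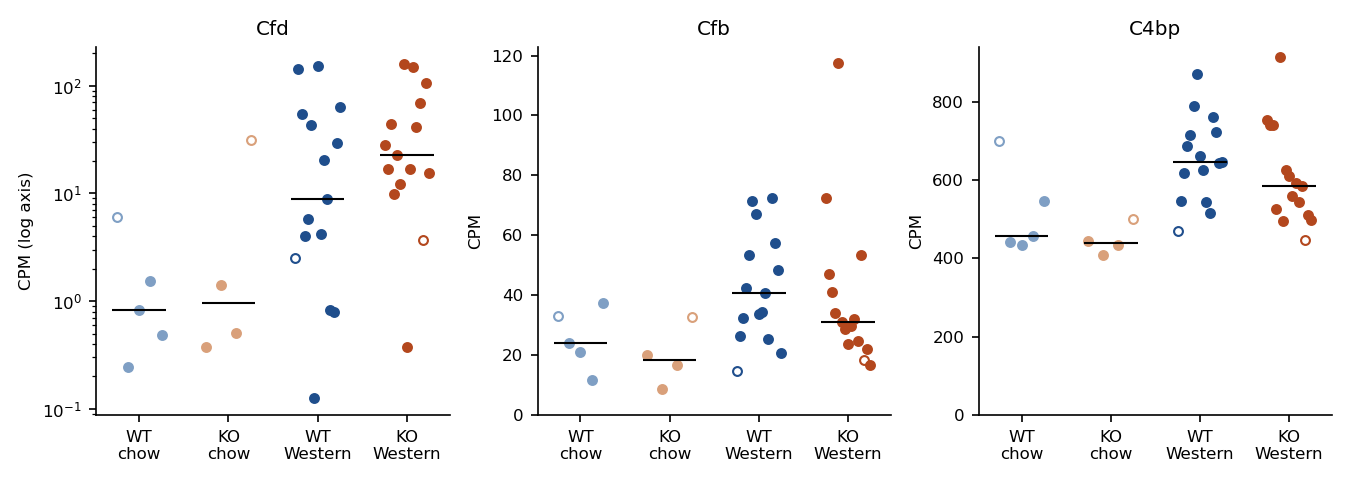
CPM of Cfd (log axis), Cfb and C4bp (linear axes) in each liver by group, spread sideways by replicate letter, with black lines at group medians. Open points are the 4 libraries that stand with the other diet; the 2 among chow livers are the highest of all chow livers for Cfd and the highest of their own genotype for C4bp.

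Other members with an unadjusted p under 0.05 on Western diet did not pass with or without the 4 libraries. Masp2 had a log2 fold change of 0.21 (SE 0.08, edgeR adjusted p = 0.146) in wildtype and 0.00 (SE 0.08) in knockouts. In wildtype, 14 of 15 Western diet livers exceeded every wildtype chow liver (168 to 181 CPM). All 4 knockout chow livers (181 to 209 CPM) exceeded every wildtype chow liver too. Over a stretch of 54.9% of its exon bases Masp2 overlaps Tardbp on the opposite strand, at 130 CPM, and the kit and counting are not stated to use strand, so their reads cannot be told apart. C4b had 0.39 (SE 0.19, edgeR adjusted p = 0.280) in wildtype and 0.44 (SE 0.21, edgeR adjusted p = 0.239) in knockouts. Clu had 0.28 (SE 0.15) and 0.36 (SE 0.16, edgeR adjusted p = 0.220). C9, the pore-forming protein, had 0.32 (SE 0.29) and 0.67 (SE 0.33, edgeR adjusted p = 0.253).

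The central C3 and Hc had diet values within their error. For C3 the log2 fold change was -0.23 (SE 0.26) in wildtype and 0.12 (SE 0.29) in knockouts. The wildtype value was -0.02 without chow liver E, which held 6996 CPM of C3 where the other 4 had 3486 to 4320 CPM. For Hc it was 0.00 (SE 0.23) in wildtype and 0.10 (SE 0.25) in knockouts. The C1q chains had 0.16 to 0.29 in wildtype and 0.43 to 0.57 in knockouts, with SE of 0.27 to 0.33. Both diet comparisons of a genotype share no livers with those of the other genotype, and the difference between them was tested as an interaction. The genotype comparison on chow uses the same chow livers as the diet comparisons.

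No member passed in the interaction of genotype and diet, where edgeR, DESeq2 and limma voom called 0% of all genes. At an unadjusted p under 0.05 there were 0 members, against 1.86% of genes. The smallest p values belonged to Masp2 (-0.21, SE 0.11), C5ar1 (0.87, SE 0.63) and C1s1 (-0.13, SE 0.11), on the log2 scale and each with an edgeR adjusted p of 1.00. C5ar1, the receptor for C5a, was at 5.58 CPM in wildtype chow A and 0.915 to 2.34 CPM in the other wildtype chow livers. Without that liver A its interaction value was 0.32. The interaction was positive for 25 of 33 members, against 50.8% of all genes, and for 22 without the 4 libraries. The count depended on the setting. It was 18 with a replicate block, 20 without knockout chow D alone and 21 with the library number as a covariate. With wildtype Western diet L and M summed it was 26.

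Of 25 further complement genes listed beside the members, 20 were tested and none was called by edgeR in any of the 5 comparisons. Cd59b, a second mouse CD59 gene, had the smallest p on chow, with a log2 fold change of 0.67 for the knockout (SE 0.23, edgeR adjusted p = 1.00). In wildtype mice on Western diet it had 0.41 (SE 0.18, edgeR adjusted p = 0.241). Itgax, a chain of complement receptor 4, had 0.55 (SE 0.31, edgeR adjusted p = 0.943) for the knockout on Western diet. It was at 11.8 CPM in knockout liver F and 0.463 to 2.14 CPM in the other 14, and without F the value was -0.14. The member Cd59a had 0.05 and 0.08 in the same genotype comparisons on chow and Western diet.

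Within the Western diet groups, members were then followed from liver to liver. The 7 taken here as made by macrophages were C1qa, C1qb, C1qc, Cfp, Fcna, C3ar1 and C5ar1. They were compared with a list of 12 Kupffer cell genes, as mean log2 CPM, in each genotype on Western diet (n = 15). Their relation to gene lists of other cell types was not tested. The summed CPM of the list was 142 to 642 in wildtype and 194.9 to 689.5 in knockout Western diet livers and 204 to 393 in chow livers. As mean log2 CPM the list ran from 2.43 to 4.90 in wildtype and from 2.92 to 5.00 in knockout livers. In wildtype livers all 7 members tested rose with the list, with Spearman's rho of 0.78 to 0.98. In knockout livers 6 of 7 did, and C5ar1 did not pass. The share of all genes that would pass against the list was not computed. Wildtype F, G, L, M and N, which stood apart in the acute phase list, were also the 5 highest on this list (4.13 to 4.90). All 15 wildtype livers were used here, and the part of these 5 in the relations was not tested.

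The C1q chains and Cfp followed the Kupffer cell list most closely. C1qb was at 13.0 CPM in wildtype liver J, with the lowest list value, and 77.4 CPM in wildtype G, with the highest. In knockout livers it ran from 18.2 CPM in K to 84.3 CPM in F, again the lowest and highest of the list. Knockout liver F also stood apart in other lists: recruited macrophage genes had a mean log2 CPM of 3.11 there and at most 1.215 in the other knockout Western diet livers, and stellate and fibroblast genes 5.60 against at most 4.80. Without F, 6 of 7 members again passed in knockouts. Over all 15 livers per genotype, C1qb had Spearman's rho of 0.94 with the list in wildtype (r 0.98) and 0.95 in knockouts (r 0.97). Its adjusted permutation p was 1.56e-05 for rho and 1.4e-05 for r over 14 relations, the smallest that 100000 permutations allow. Without the 2 livers farthest from the median r was 0.94 and 0.95. The rank correlation between pairs of the 3 chains was 0.85 to 0.90 in 10 wildtype livers and 0.95 to 0.98 in knockouts.

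Cfp, properdin, which stabilises the alternative convertase, had rho of 0.93 and 0.95 with the list. C3ar1 had 0.85 and 0.89. Fcna, ficolin A, had 0.84 in wildtype and 0.71 in knockout livers (adjusted permutation p = 0.000191 and 0.0044). C5ar1 had 0.78 in wildtype (adjusted permutation p = 0.00111) and 0.39 in knockout livers (r 0.46, adjusted permutation p = 0.150 for rho), where r without the 2 farthest livers was 0.21. The difference of the C5ar1 relation between genotypes was not tested.

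**Figure D4:**
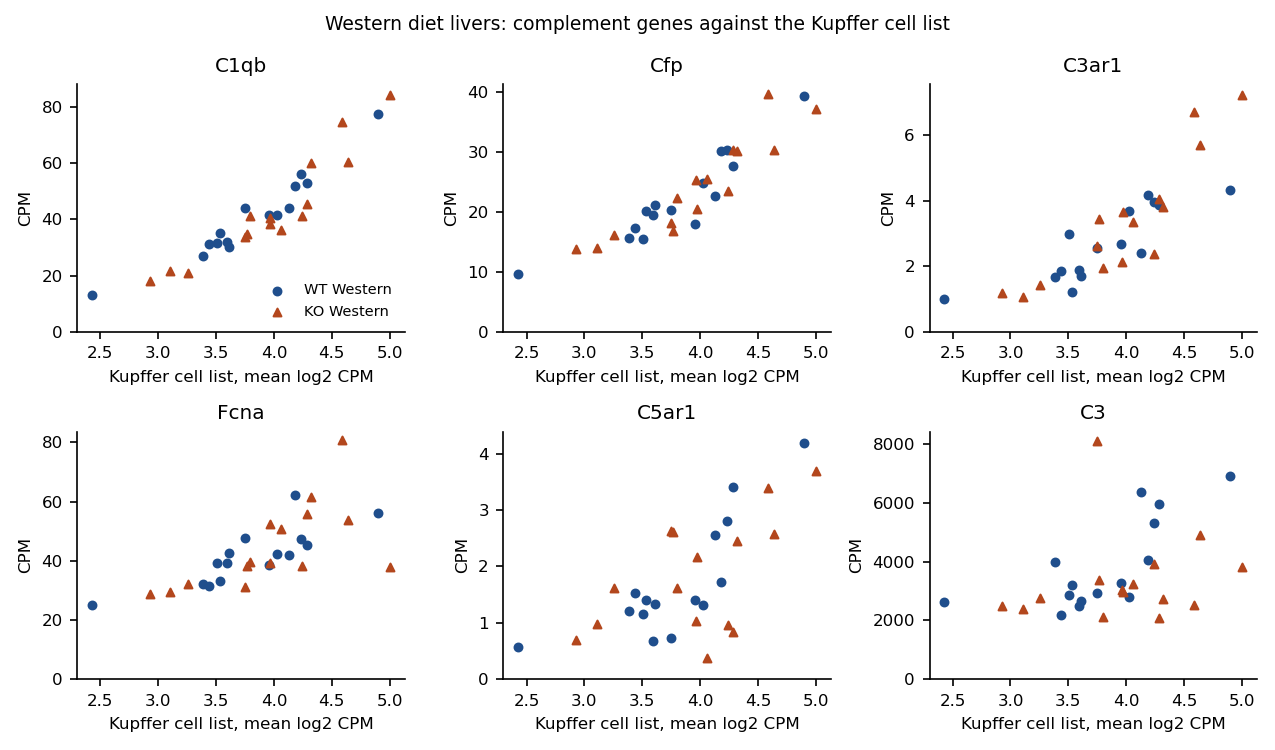
CPM of 6 members against the mean log2 CPM of 12 Kupffer cell genes in the 30 Western diet livers, circles for wildtype and triangles for knockout. C1qb, Cfp and C3ar1 climb with the list in both genotypes, C5ar1 scatters in knockouts, and C3, made by hepatocytes, is shown for contrast.

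All 33 members were compared with the acute phase list of 24 genes in the same way, over 66 relations. Wildtype Western diet livers fell into 10 at 7.02 to 7.98 and 5 (F, G, L, M and N) at 8.83 to 10.2, so relations in wildtype were computed over the 10. Knockout livers ran from 7.04 to 9.26, with E apart from the next by 0.83. By Spearman's rho, 5 members passed in the 10 wildtype livers and 12 in the 15 knockout livers, all with positive rho. The share of all genes that would pass against the list was not computed, so these counts do not set members apart from other genes. The counts for the genotypes differ in n and in the range of the list, and their difference was not tested. The gap in wildtype was 0.85, and livers above a gap were left out in wildtype alone.

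Of these, 4 passed in both genotypes. C4b had rho of 0.83 (r 0.81, adjusted permutation p = 0.0222 for rho) in wildtype and 0.86 (r 0.82, adjusted permutation p = 0.00182) in knockout livers. C4bp had 0.88 (r 0.80, adjusted permutation p = 0.0096) and 0.83 (r 0.87, adjusted permutation p = 0.00321). Cfi had 0.84 (r 0.80, adjusted permutation p = 0.0213) and 0.80 (r 0.84, adjusted permutation p = 0.00446), and Serping1, the inhibitor of C1r, C1s and MASPs, had 0.79 and 0.68 (adjusted permutation p = 0.0368 and 0.0315). For these 4 genes r without the 2 farthest livers was 0.63 to 0.75. C4b and C4bp also followed each other, with rho of 0.99 and 0.85, in pairs of members chosen after their values were seen.

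Mbl1, a mannose-binding lectin, passed in the wildtype livers (rho 0.92, r 0.91, adjusted permutation p = 0.00543) and not in knockouts (rho 0.59, adjusted permutation p = 0.0813). In knockout livers Hc (rho 0.86), Masp1 (0.86), Clu (0.85), C9 (0.84), C5ar1 (0.83), C8a (0.76), C2 (0.70) and Cfb (0.64) also passed, with adjusted permutation p of 0.00182 to 0.0486. For Cfb r fell from 0.75 to 0.45 without the 2 farthest livers, so it leans on them, and liver E held both its highest level (117 CPM) and the highest list value. For C9 it was 0.88 and 0.83, and for C8a 0.88 and 0.79. C3 had rho of 0.57 in knockout livers (adjusted permutation p = 0.0893) and 0.62 in the 10 wildtype livers (adjusted permutation p = 0.161). Its r in knockouts, 0.71 (adjusted permutation p = 0.0156), was 0.31 without the 2 farthest livers, so it rests on them. In the 10 wildtype livers C9, C8a and Hc had rho of 0.28, 0.59 and 0.37 and did not pass. The 5 wildtype livers left out hold the highest list values. They include 3 of the 5 highest wildtype Western diet livers for C9, and 4 of 5 for C8a and for Hc.

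The chains of C8 differed from one another. C8a and C8b encode chains of the pore complex and C8g a lipocalin bound to them. In wildtype livers C8a was at 420 to 1147 CPM and C8b at 115 to 533 CPM, whereas C8g stayed at 489 to 627 CPM. In knockout livers C8a was at 385 to 1110, C8b at 73.9 to 356 and C8g at 373 to 629 CPM. C8a and C8b followed each other, with rho of 0.78 (r 0.73, adjusted permutation p = 0.0213) in the 10 wildtype and 0.82 (r 0.87, adjusted permutation p = 0.00101) in the knockout livers. C8a and C8g had rho of -0.42 (adjusted permutation p = 0.461) and 0.13 (adjusted permutation p = 0.779), which did not pass. C8g with the acute phase list had rho of 0.02 and -0.14. C8b had rho of 0.58 with the list in knockouts (r 0.65, adjusted permutation p = 0.0893 for rho and 0.0298 for r).

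Members with and without these promoter letters lay on both sides of the threshold. Of the 9 members with C/EBP or STAT letters, 2 (C9 and C8a, shown above) passed by rho in knockouts, and 7 (C3, C1ra, C1s1, C1rl, Vtn, Colec11 and Masp2) did not. By Pearson's r 4 of the 9 passed. Of the 16 members whose promoter held neither motif, 3 passed by rho (Hc, C4bp and C5ar1) and 4 by r. The 8 members without a RefSeq promoter could not be sorted by these letters. Of those 8, 7 passed by rho (C2, C4b, Masp1, Cfb, Cfi, Serping1 and Clu), so the motif counts leave them out.

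The lectins differed as well. Mbl1 and Mbl2, 2 mannose-binding lectins, had rho of -0.82 with each other in knockout livers (r -0.71, adjusted permutation p = 0.00101, r without the 2 farthest -0.68) and 0.22 in the 10 wildtype livers (adjusted permutation p = 0.754). Mbl2 was highest in knockout liver N, at 320 CPM, where Mbl1 was at 204 CPM, and lowest in knockout H, at 149 CPM, where Mbl1 was at 247 CPM. C1ra and C1s1, partners in the C1 complex, had rho of 0.88 in knockout livers (r 0.87, adjusted permutation p = 0.000156) and 0.26 in the 10 wildtype livers. These pairs are among 26 relations chosen after their values were seen, and whether the genotypes differ in them was not tested. Colec11, Masp2, C1rl, Cd55 and Cd59a had rho between -0.29 and 0.18 with the acute phase list in both genotypes.

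**Figure D5:**
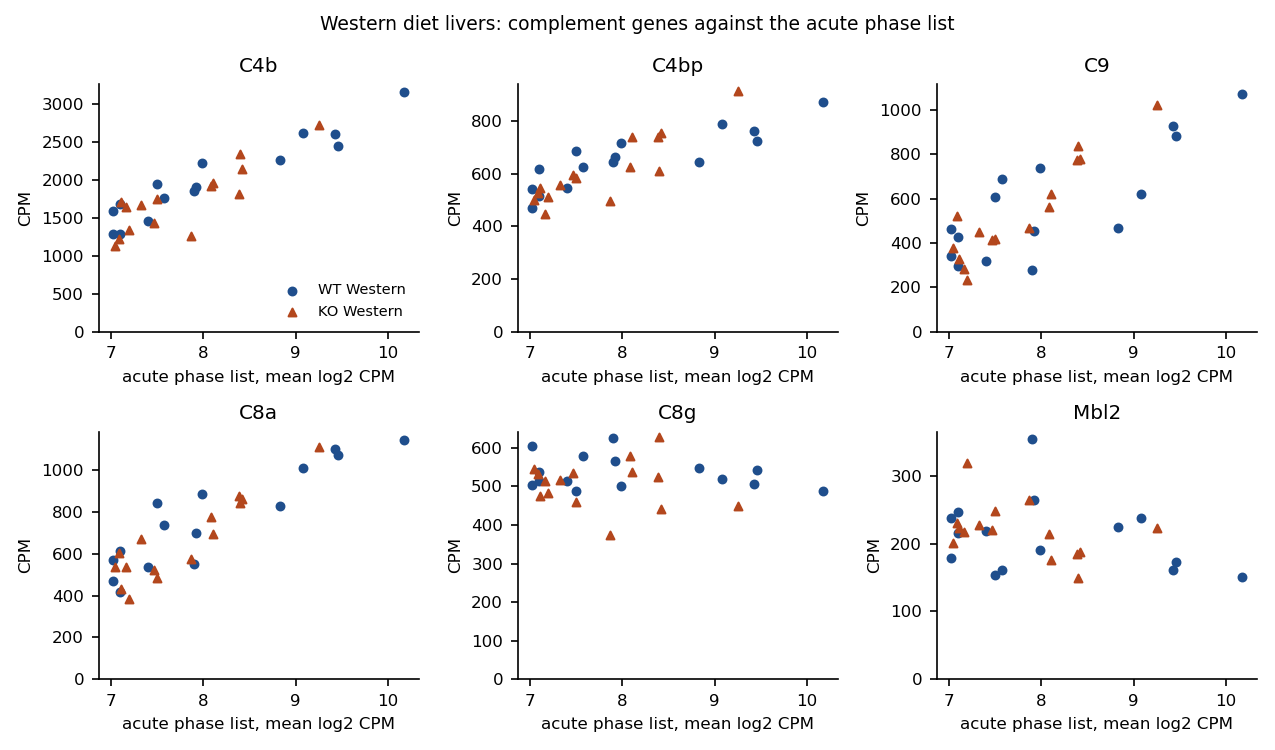
CPM of 6 members against the mean log2 CPM of 24 acute phase genes in the 30 Western diet livers, circles for wildtype and triangles for knockout. C4b, C4bp, C9 and C8a are higher where the list is higher, C8g stays level and Mbl2 shows no rise.

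Some values are uncertain because of shared or overlapping sequence. Gm20547 covers 79.5% of the exon bases of Cfb and 42.8% of those of C2 on the same strand and had 0 counts in all 39 libraries. C4b and C4a, C1ra and C1rb, C1s1 and C1s2, and Cd59a and Cd59b are near copies, so their reads could be split by the counting.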

How the data were processed

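Counts of reads per gene were deposited by the authors as whole numbers, without normalization, for 39 libraries. Per the submitters' processing notes, STAR 2.7.8a, featureCounts 2.0, FastQC, MultiQC and genome build GRCm39 were used, and the annotation release and strand setting are not given in the sources used here. Per the labels' protocols, libraries were made from total RNA of snap-frozen liver with the NEBNext Ultra kit and sequenced in pairs. Symbols from the GENCODE M21 annotation matched 52083 of 55416 identifiers and 99.4% of counts. Exon lengths come from the same annotation.

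Genes were filtered with filterByExpr (minimum count 10, minimum total 15) and fitted in edgeR 4.0.16 (R 4.3.3) by quasi-likelihood with TMM scaling and 1 term per group over all 39 libraries. Benjamini-Hochberg adjustment ran over all 15296 genes, at a threshold of 0.05. The SE is that implied by the F statistic. Library totals of 8578865 to 30438808 counts set the precision. CPM values use TMM-scaled totals, and log2 CPM a prior count of 2. List values are means of log2 CPM over genes. Relations are Pearson's r and Spearman's rho of log2 CPM with 2-sided permutation tests of 100000 resamples (scipy 1.17.1), adjusted within each family. The fit was tested on simulated data. The alternatives tried were DESeq2 1.42.0, voom of limma 3.58.1 with sample weights, scaling by RLE, no filter, a replicate block, the library number as a covariate, the compared groups alone, wildtype Western diet L and M (the closest pair of libraries, kept as 2 mice) summed, each library left out and the 4 diet-discordant libraries left out together. The members and lists were chosen with earlier results of these data known. Named in full are the 3 members with the smallest p in each comparison, C1ra, C1s1, C1rl, the C1q chains, C3 and Hc, and of the further complement genes those with the smallest p. C8b, C4b, Clu, C9, Cfb, C4bp in knockouts, the C8 chains, the lectin pairs and the genes set beside Cfd were chosen after their values were seen.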

Additional observations from a re-analysis of the deposited data

Results flagged for a closer look

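Among 66 tests of a single library against the rest of its chow group, 7 placed 1 library far from the others by Dixon's rule, and chance alone places about 1 in 20 groups so. In wildtype chow, liver B had Fcna at 48.04 CPM (others 28.15 to 33.75), and liver E had C3 at 6996 CPM (others 3486 to 4320) and Serping1 at 959.2 CPM (others 554.9 to 671.0). Liver A had C6, a terminal pathway protein, at 498.0 CPM (others 269.2 to 324.5) and Cfd at 6.012 CPM (others 0.2464 to 1.548). In knockout chow, liver D had Cfd at 31.24 CPM (others 0.3774 to 1.425), and liver A had C3ar1 at 1.132 CPM, below the 2.443 to 2.698 CPM of the others. Wildtype chow A and knockout chow D are among the 4 libraries whose sterol genes stand with the other diet.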

How the results depend on the processing

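No alternative called a member by genotype or in the interaction. For diet in wildtype mice 1 member was called by DESeq2, 1 by limma voom and 2 without the 4 libraries. For diet in knockouts the calls were 1 by limma voom, 3 without the 4 libraries, and 0 to 1 when each library was left out in turn, the 1 being C4bp (log2 fold change 0.52, edgeR adjusted p = 0.0458) without knockout chow D. In that last fit 4.89% of 15536 genes were called higher, against 3.03% of the members. Cfd in wildtype had an adjusted p of 0.0043 by DESeq2 and 0.486 by limma voom. The replicate block called 0 members in all 5 comparisons. It left 38 higher and 12 lower calls among all genes for diet in wildtype, where the fit without it had 118 and 94. With the library number as a covariate no gene was called for that comparison. Replicate letters are not stated to pair mice: between genotypes on Western diet, same-letter libraries correlated at -0.0104 on average (-0.325 to 0.376), and 2 of 15 correlated best with their own letter.

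Of 375 values of named members under alternatives, 353 kept direction and side of the threshold, 8 passed it and 14 changed sign. The cause was not tested. These were C1qb for genotype on Western diet (-0.00553, limma voom), C1rl for the same (0.0228, library number), C1s1 for genotype on chow (-0.00671 by RLE, -0.00690 by DESeq2, -0.00702 without the filter, -0.0147 with library number) and C1qa for diet in wildtype (-0.0687, replicate block). Hc for diet in wildtype had -0.000980 by RLE, -0.000943 by DESeq2 and -0.0497 with L and M summed. In knockouts C3 for diet had -0.158 by limma voom and -0.0223 with the replicate block, and Hc had -0.0176 with the block and -0.00149 without the 4 libraries. Leaving out each library gave sign changes in C1qb (-0.0121 to 0.192) and C1rl (-0.0526 to 0.00345) for genotype on Western diet. For genotype on chow these were C1qa (-0.231 to 0.0211), C1qc (-0.218 to 0.0304) and C1s1 (-0.0448 to 0.0395) and Cfd (-1.20 to 3.52). For diet these were Hc in wildtype (-0.112 to 0.132), and in knockouts C3 (-0.0623 to 0.275) and Hc (-0.0182 to 0.233). Of the 42 named member values, none of them called, leaving out 1 library turned 9 in sign and moved 19 more by over 1.5 times. Itgax turned to -0.141 without knockout Western diet F, a setting chosen after seeing the data, as was the Kupffer cell relation without that liver. The counts of relations past the threshold were 5 to 6 and 12 to 13 for the acute phase list and 7 and 6 for the Kupffer cell list under every alternative run. Taking L and M as their mean was not run for the acute phase relation, since neither is among the 10 wildtype livers. Only 4 or 5 chow livers per genotype limit the diet and chow values.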
